A study of Mus musculus with 4 samples.

Results

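The interferon-response genes of mouse liver were compared between the fasted and the re-fed state. Members were chosen by a rule on gene names, as array spots of the Ifit, Ifi, Ifitm, Irf, Oas, Gbp, Irgm and Isg families and as Usp18, Rsad2, Mx1, Mx2, Iigp1, Igtp, Tap1, Tap2 and Ifih1. They came to 65 of the 31709 gene names on the array, measured by 86 probes. Because the choice was by name, it also took Irf2bp1, Irf2bp2 and Isg20l2, which share a prefix with interferon genes and are not known as interferon-induced genes. Total RNA came from individual livers of male C57BL/6J mice (strain given as C57/Bl6 in the labels) aged 8 to 12 weeks. The fasted mice (4) were without food for 24 h, and the re-fed mice (4) had food for 2 h after the same 24 h without it. The labels name no engineered allele and no agent in either group. On a two-colour array, RNA of 2 livers carries the dyes Cy5 and Cy3 and binds the same spots. Each of the 4 arrays held 1 fasted and 1 re-fed liver, paired at random, and is called a replicate (n = 4). The fasted liver carried Cy5 on replicates 1 and 2 and Cy3 on replicates 3 and 4. Values are log2 ratios of fasted over re-fed liver, so a negative value is a lower level in the fasted liver.

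Interferons are secreted proteins, and those of type I are released when a cell senses viral or bacterial nucleic acid. Type I interferons act through the receptor pair Ifnar1 and Ifnar2, the kinases Jak1 and Tyk2 and a protein complex containing Stat2 and Irf9, which binds the interferon-stimulated response element (ISRE) of target promoters. Interferon gamma acts through Ifngr1 and Ifngr2 and leads to binding at the gamma-activated site (GAS). In liver, hepatocytes and the resident macrophages (Kupffer cells) both respond to interferon, and most interferon-response genes keep a low basal level in the absence of infection.

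The core letters of both elements were searched on both strands of RefSeq promoters (GRCm38.p6), each 300 bases long with 250 bases before and 50 after the annotated start. Of the 65 genes, 47 matched the promoter table. GAAANNGAA, the ISRE core, was found in 23 of these 47 (48.9%), against 9.76% of all 27025 genes in the table. TTCNNNGAA, the GAS core, was found in 15 of 47 (31.9%), against 9.55% of all genes. Counted per promoter rather than per gene, the shares over all 32851 promoters were 8.56% and 8.3%. A match of letters is a description of the sequence and does not show that a factor bound there. The stretches of 80 bases below, upstream of the start and read 5′ to 3′ on the strand of the gene, are shown because they belong to the genes with the clearest differences (Irf1, Igtp, Irgm1, Irf2bp2), to a close relative that did not pass the test (Irgm2), and to the gene with the most negative mean (Isg15). Capitals mark every ISRE or GAS core in the stretch.
Irf1 (chr11:53769889-53769968, plus strand): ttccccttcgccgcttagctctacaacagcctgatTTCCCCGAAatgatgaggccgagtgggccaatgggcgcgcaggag
Igtp (chr11:58199476-58199555, plus strand): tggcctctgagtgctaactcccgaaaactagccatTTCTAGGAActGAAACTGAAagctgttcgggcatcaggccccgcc
Irgm2 (chr11:58214878-58214957, plus strand): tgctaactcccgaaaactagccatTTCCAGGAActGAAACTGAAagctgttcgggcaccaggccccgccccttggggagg
Irgm1 (chr11:48871421-48871500, minus strand): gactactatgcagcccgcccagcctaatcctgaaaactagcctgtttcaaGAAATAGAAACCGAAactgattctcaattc
Isg15 (chr4:156200840-156200919, minus strand): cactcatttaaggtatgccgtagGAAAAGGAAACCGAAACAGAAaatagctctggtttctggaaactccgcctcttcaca
Irf2bp2 (chr8:126594083-126594162, minus strand): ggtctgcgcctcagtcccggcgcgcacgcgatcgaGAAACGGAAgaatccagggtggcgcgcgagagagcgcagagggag
The Irf1 stretch held a GAS core, beginning 90 bases before the start, and the Irf1 promoter held no ISRE core. Igtp and Irgm2 each had a GAS core followed by an ISRE core, with no overlap between them. Set on that ISRE core, the Igtp stretch and the matching 80 bases of the Irgm2 promoter had the same base at 78 positions, and over all 220 upstream bases that could be set side by side 134 were the same (60.9%). The ISRE cores overlapped each other in Irgm1 (2 cores) and in Isg15 (3 cores). Irf2bp2 had 1 ISRE core, beginning 141 bases before the start.

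Probes were tested only if the scanner software placed them well above background in every fasted or in every re-fed liver. That left 64 of the 86 member probes, covering 54 genes, of which 63 probes passed through both conditions and 1 dim Ifi27l2b probe through the fasted livers only. The 11 genes without such a probe were Ifi202b, Gbp1, Gbp8, Ifitm5, Ifitm6, Oas1d, Oas1e, Oas1g, Oas1h, Oas3 and Irf4. Among them, a probe of Gbp1, of Ifitm6 and of Oas1d was above background on 3 of 4 arrays in each condition, and Ifi202b, Oas1e, Oas1g, Oas1h, Oas3 and Irf4 on 0 arrays in either. A gene with several tested probes is given by its brightest.

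Over all genes, the arrays had median gene-spot signals of 40 to 96 and median local backgrounds of 20 to 35, no spot was saturated, and 335 probes were higher and 410 lower in fasted liver of 19721 tested. With median centring in place of loess, which is a smooth correction of the dye ratio along brightness, the split was 230 and 635. All 8 hepatocyte marker genes were above background, with a median log2 ratio of 0.18. Of these Tat, an enzyme of tyrosine breakdown, was called higher in fasted liver (mean 0.84, adjusted p = 0.0451), and Cps1 had an adjusted p of 0.0764 without a call. Pancreatic acinar markers stood apart on replicate 3, with a median log2 ratio of -3.37 against -0.01 to 0.05 on the other arrays, and the 9 acinar genes not above background included Cela1 and Pnlip. Red blood cell markers had median ratios of 2.08, -0.26, 2.44 and 0.34 on replicates 1 to 4.

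Few interferon-response genes differed between the states. A call required a limma adjusted p below 0.10 together with a difference of 1.5-fold or more. By this measure 2 of the 64 probes were higher in fasted liver, where 1.7% of all tested probes were, and both belong to Irf2bp2. In the other direction 3 probes were lower (Irf1, Igtp and Irgm1), where 2.08% of all tested probes were. Counts this small are given as results on single genes, not on the group. In whole liver, fewer cells of a type and less RNA per cell cannot be told apart. Without the fold limit, 9 member probes had an adjusted p under 0.10, where 10.9% of all tested probes did, and 15 had an unadjusted p under 0.05, where 21.6% of all tested probes did.

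The median log2 ratio of the 54 genes was -0.09, against 0.00 for all 16054 tested genes. Per array the members' median was 0.16, -0.13, -0.21 and -0.16 on replicates 1 to 4 (SD over arrays 0.16), so replicate 1 lay on the other side of 0 from the other arrays. The mean ratio was negative for 39 of 54 genes (72.2%), against 49.2% of all tested genes, and over the alternative settings for those 54 genes between 31 and 45. Members also varied more between arrays. Their median SD over the 4 arrays was 0.30, against 0.19 for all tested genes. The share of negative means is a description, since the genes of a shared response do not vary independently.

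**Figure D1:**
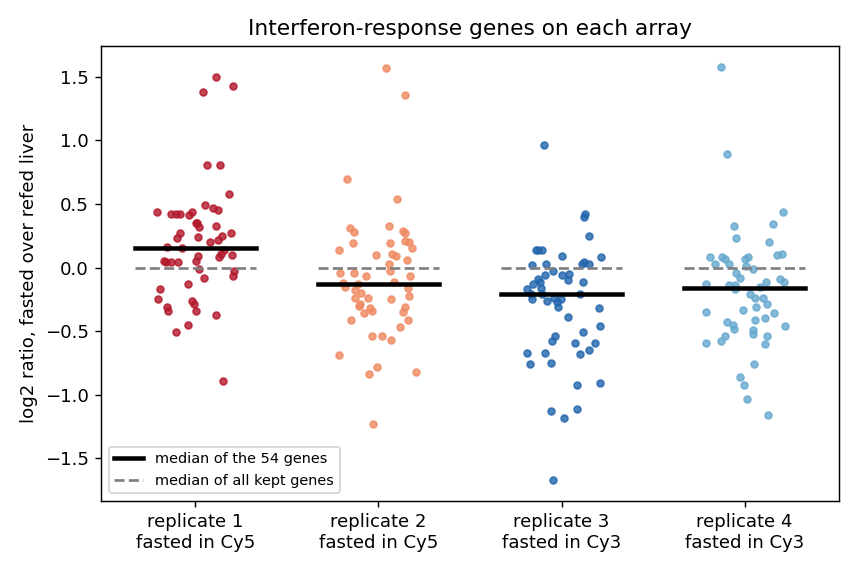
Log2 ratios of fasted over re-fed liver (vertical axis) of the 54 interferon-response genes on each of the 4 arrays (1 point per gene, spread sideways at random), with the members' median as a black line and the median of all tested genes as a grey dashed line. The black lines lie at 0.16, -0.13, -0.21 and -0.16, while the grey lines lie within 0.01 of 0.

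Among the transcription factors, Irf1 was lower in fasted liver. Irf1 is an activator that is itself rapidly induced by interferon gamma and that switches on antigen presentation and GTPase genes. Its log2 ratios on replicates 1 to 4 were -0.89, -0.84, -0.67 and -0.49, with a mean of -0.72 ± 0.18 (SD, n = 4), a level 1.65-fold lower in the fasted liver (limma, adjusted p = 0.0143). In log2 intensity the fasted livers stood at 10.15, 10.23 and 10.72 on replicates 1, 2 and 4, with replicate 3 between the latter pair, and the re-fed livers at 11.04, 11.07, 11.18 and 11.20. No fasted liver reached the lowest re-fed liver, and the re-fed livers lay close together. The probe lies at chr11:53590746-53590805 (mm9, the build of the array files). A dim second Irf1 probe was not above background and was not tested.

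Irf2bp2 was higher in fasted liver. Its product binds Irf2 and acts as a transcriptional corepressor, and it is not known as an interferon-induced gene. Its brighter probe (mm9, chr8:129114708-129114767) gave log2 ratios of 1.5, 1.57, 0.96 and 1.58, with a mean of 1.40 ± 0.30 (SD, n = 4), a level 2.64-fold higher in the fasted liver (limma, adjusted p = 0.0052). The fasted livers stood at log2 intensities of 11.25, 11.65, 11.51 and 12.27 and the re-fed livers at 9.76, 10.08, 10.55 and 10.69, with no overlap. A second probe (mm9, chr8:129112394-129112453) had log2 ratios of 0.53, 1.07, 1.20 and 1.51, with a mean of 1.08 ± 0.41 (SD, n = 4; adjusted p = 0.0192), so both probes passed the test in the same direction. The related Irf2bp1 had a mean log2 ratio of -0.25, which did not pass the test (adjusted p = 0.199).

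Of the other Irf factors, the direction differed from gene to gene. Irf2, a repressor that competes with Irf1 for the same DNA element, had log2 ratios of 0.35, 0.54, 0.25 and 0.89 (mean 0.51, SD 0.28, adjusted p = 0.0627), under the fold limit. Its fasted livers all lay above its re-fed livers. Irf3, the factor that starts interferon beta transcription after nucleic acid sensing, had ratios of -0.34, -0.25, -0.21 and -0.29. Its mean of -0.27 had the small SD of 0.05 (adjusted p = 0.0758), and its size was under the fold limit as well. Irf5, an activator of inflammatory cytokines in myeloid cells, gave -0.37, -1.23, -0.21 and -0.54, with a mean of -0.59 and an adjusted p of 0.104. Replicate 2 had the largest ratio, without which the mean was -0.37, and the livers of the 2 states overlapped. Irf5 was called lower under 7 of 16 alternative settings, among them no background correction, median centring and a dye term. Irf9, the DNA-binding part of the Stat complex, had ratios of 0.22, -0.07, -0.65 and -0.54 (mean -0.26, adjusted p = 0.405). Irf7 and Irf8 had means of 0.05 and 0.12, and their ratios stayed between -0.11 and 0.29 on the 4 arrays. Irf7, the amplifier of interferon alpha production and a widely used interferon target, thus had no ratio outside -0.03 to 0.11.

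**Figure D2:**
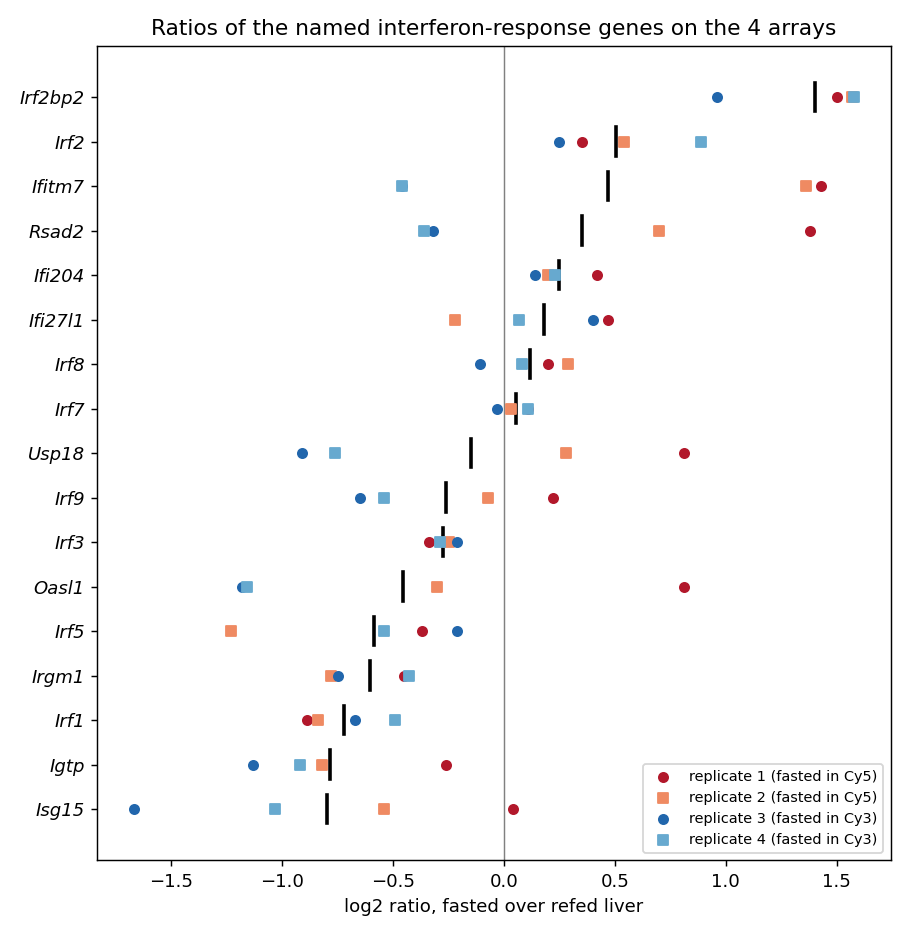
Log2 ratios of fasted over re-fed liver (horizontal axis) of 17 interferon-response genes on the 4 arrays, coloured by array, with the mean as a black bar. Irf1, Irgm1, Igtp, Irf3 and Irf5 lie left of 0 on every array and Irf2bp2, Irf2 and Ifi204 right of it, while Ifitm7, Rsad2 and Usp18 have red points right of 0 and blue points left of it.

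The immunity-related GTPases, which disrupt the vacuoles of intracellular microbes, held the other lower calls. Igtp had log2 ratios of -0.26, -0.82, -1.13 and -0.92, with a mean of -0.78 ± 0.37 (SD, n = 4), a level 1.72-fold lower in fasted liver (limma, adjusted p = 0.0343; mm9, chr11:58020927-58020986). Its fasted livers stood at log2 intensities of 10.77, 10.88, 10.60 and 10.57 and its re-fed livers at 11.04, 11.70, 11.74 and 11.49. The states did not overlap, and the re-fed liver of replicate 1 was the closest to the fasted ones. Irgm1, a regulator that keeps other family members off the cell's own membranes, had ratios of -0.45, -0.78, -0.75 and -0.43. Its mean was -0.60 ± 0.19 (SD, n = 4), a level 1.52-fold lower in fasted liver (limma, adjusted p = 0.0215; mm9, chr11:48679069-48679128). The fasted livers of Irgm1 lay within 9.58 to 9.67 in log2 intensity and the re-fed livers within 10.06 to 10.37. The second Irgm1 probe gave -0.14, -0.37, -0.99 and -0.77 (mean -0.57, adjusted p = 0.0804), just under the fold limit.

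The rest of this family did not pass. Irgm2, whose promoter shares 78 of 80 bases with Igtp around the ISRE core, had log2 ratios of 0.42, -0.07, -0.76 and -0.60 (mean -0.25, adjusted p = 0.529). Ifi47 had a mean of -0.34 and Iigp1 a mean of 0.13. Calls of Igtp and Irgm1 rested on some of the arrays. Without replicate 2 or without replicate 3, neither passed, and Igtp did not pass without replicate 4 either, while its mean log2 ratio stayed between -0.96 and -0.67 when any 1 array was left out. The mean of Irgm1 was -0.54 without replicate 2, where it missed the fold limit alone (adjusted p = 0.0868), and -0.56 without replicate 3. Irf1 and Irf2bp2 passed whichever array was left out. With the background fitted on all spots neither passed, at mean log2 ratios of -0.55 (adjusted p = 0.559) and 1.11 (adjusted p = 0.49). That setting kept the spots with an extreme local background.

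**Figure D3:**
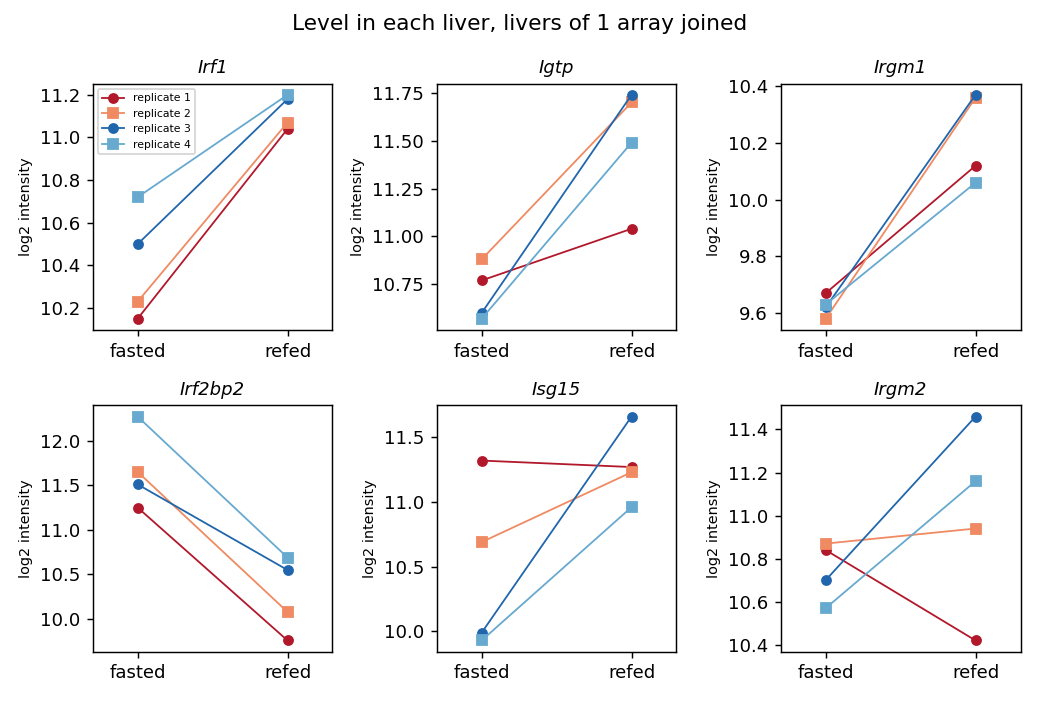
Log2 intensity (vertical axis, a separate range in each panel) of 6 genes in the 4 fasted and 4 re-fed livers, with the 2 livers of an array joined. Lines rise from fasted to re-fed on all arrays for Irf1, Igtp and Irgm1 and drop on all arrays for Irf2bp2, whereas Isg15 and Irgm2 have a line in the opposite direction on replicate 1.

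Isg15, Usp18, Oasl1 and Rsad2, genes of the classical type I response, did not pass the main test and differed strongly between arrays. Isg15, a ubiquitin-like protein attached to other proteins in infected cells, had the most negative mean of all members. Its log2 ratios were 0.04, -0.54, -1.67 and -1.03 (mean -0.80, SD 0.73, limma, adjusted p = 0.138), and its second probe had a mean of -0.57 (adjusted p = 0.16). In log2 intensity the fasted livers of Isg15 stood at 11.32, 10.69, 9.99 and 9.93 and the re-fed livers at 11.27, 11.23, 11.66 and 10.96. The fasted liver of replicate 1 lay among the re-fed livers, and the other fasted livers lay below all of them. Leaving out replicate 3 brought the mean of Isg15 to -0.51 (adjusted p = 0.323). Without replicate 1, Isg15 was called lower (mean -1.08), and 8 member probes were lower in all (2.66% of all tested probes were, at that setting), the additions being both probes of Isg15, the second of Irgm1, Oasl1 and Mx2. Isg15 was called lower under 4 of 16 alternative settings, the others being median centring, a dye term and the rebuilt SAM test.

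Usp18, the protease that removes Isg15 and blocks the type I receptor, had ratios of 0.81, 0.28, -0.91 and -0.76 (mean -0.15, adjusted p = 0.84). Oasl1, a member of the oligoadenylate synthetase family that limits Irf7 translation, had ratios of 0.81, -0.30, -1.18 and -1.16 (mean -0.46, adjusted p = 0.498). Rsad2, the antiviral enzyme viperin, had ratios of 1.38, 0.70, -0.32 and -0.36 (mean 0.35, adjusted p = 0.573). For these genes the array decided the sign. Ifitm7, of a family of membrane proteins several of which block virus entry, had the largest SD of the members (1.07), with ratios of 1.43, 1.36, -0.46 and -0.46 (mean 0.47, adjusted p = 0.548).

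For Ifitm7, Rsad2 and Usp18 the sign followed the dye orientation. A Cy5 over Cy3 effect, fitted as a second term in limma, had an adjusted p under 0.10 for 16 of the 64 member probes, 14 of them brighter in Cy5, where 14.8% of all tested probes had a dye effect in either direction. It was 0.93 on the log2 scale for Ifitm7 (adjusted p = 0.00326), 0.69 for Usp18 (adjusted p = 0.0299) and for Rsad2 (adjusted p = 0.0374), and 0.55 for Ifit1 (adjusted p = 0.0483). Among the 54 genes, 8 had positive ratios on both arrays with Cy5-labelled fasted liver and negative ratios on both others (14.8%, against 12% of all tested genes), namely Mx1, Gbp3, Ifitm7, Ifit1, Ifit3, Rsad2, Ifih1 and Usp18. An effect of the dye and a difference between the livers of replicates 1 and 2 and those of replicates 3 and 4 cannot be told apart here.

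With the dye term in the model, 2 member probes were called higher (background 1.93%) and 5 lower (background 2.26%). The lower calls then added Irf5 (adjusted p = 0.0415) and Isg15 (adjusted p = 0.0141) to Irf1, Igtp and Irgm1. Ifitm7 then had an adjusted p of 0.00551 for fasted over re-fed liver, with its mean of 0.47 under the fold limit. The dye effect of Irf1, Igtp, the brighter Irgm1 probe and both Irf2bp2 probes lay between -0.28 and 0.24 and had adjusted p-values of 0.16 to 0.935. That of the second Irgm1 probe, which was not called, was 0.31 (limma, adjusted p = 0.0629).

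**Figure D4:**
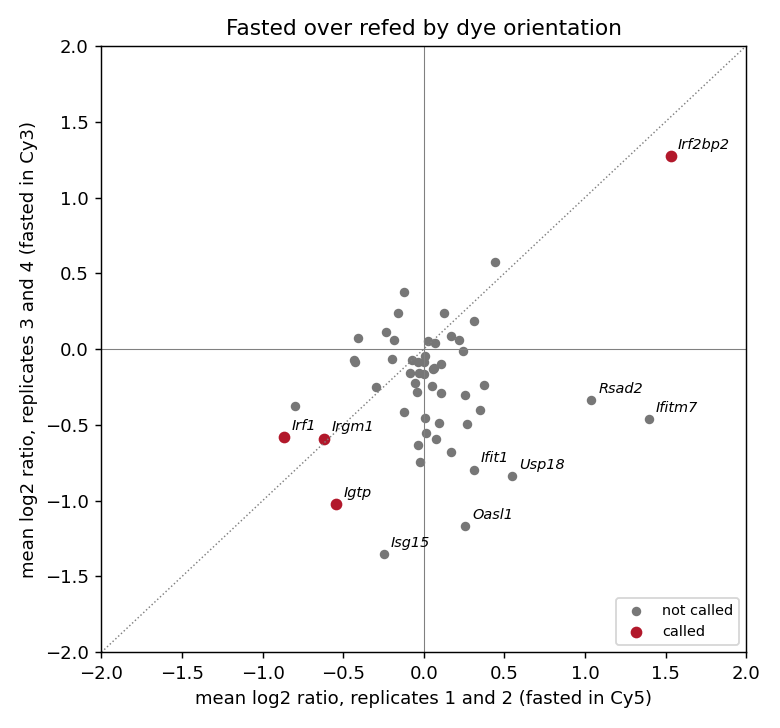
Mean log2 ratio of each of the 54 genes on the arrays with the fasted liver in Cy3 (vertical axis) against that on the arrays with the fasted liver in Cy5 (horizontal axis), with called genes in red and a dotted line of equal values. Irf1, Irgm1, Igtp and Irf2bp2 have the same sign in both orientations, and Ifitm7 (1.39 and -0.46), Rsad2, Usp18, Oasl1 and Ifit1 lie in the lower right, positive in one and negative in the other.

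The remaining RNA-directed effectors had small means. The Ifit proteins, which bind foreign RNA ends, had means of -0.24 (Ifit1), -0.06 (Ifit2) and -0.03 (Ifit3). The ratios of Ifit1 ran from -1.11 to 0.35. Of the oligoadenylate synthetase family, some members of which activate RNase L, Oas1a, Oas1b, Oas1c, Oas1f, Oas2 and Oasl2 had means between -0.25 and 0.14. The second probe of Oas1b had a mean of 0.11, opposite in sign to its brighter probe (-0.06). The RNA exonuclease Isg20 had a mean of -0.27, and Isg20l2 one of 0.04. The RNA sensor Ifih1 (Mda5) had a mean of 0.07. The dynamin-like GTPases Mx1 and Mx2, which trap viral components, had means of -0.02 and -0.39.

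Guanylate-binding proteins, which attack pathogen vacuoles beside the immunity-related GTPases, had negative means for 6 of 7 genes, and for 3 of 7 when the background was fitted on all spots. The means were -0.20 (Gbp2), -0.11 (Gbp3), -0.22 (Gbp4), -0.14 (Gbp5), -0.16 (the probe named Gbp6, which RefSeq assigns to Gbp7), -0.02 (Gbp10) and 0.04 (Gbp9), and none passed the test. These genes are close copies of each other, and probes may bind more than 1 of them. Of the p200 family of DNA-binding proteins, Ifi204 had ratios of 0.42, 0.20, 0.14 and 0.23 (mean 0.25, adjusted p = 0.133). Ifi203 had a mean of -0.07 by its brighter probe and of -0.38 by a dimmer one, which had an adjusted p of 0.0661 and missed the fold limit.

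The antigen-processing genes stayed near 0. Tap1 and Tap2, the subunits of the transporter that loads peptides for MHC class I, had means of -0.09 and 0.00, and Ifi30, a lysosomal thiol reductase, had a mean of -0.08. Ifitm1, Ifitm2 and Ifitm3 had means of -0.04, -0.12 and -0.03. Of the other induced genes, Ifi27l1 (Ifi27 in RefSeq) had ratios of 0.47, -0.22, 0.40 and 0.07 (mean 0.18, adjusted p = 0.491). Ifi27l2a, Ifi27l2b, Ifi35 and Ifi44 had means of 0.13, -0.10, -0.16 and -0.27, and the second probe of Ifi27l2b one of 0.01.

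Counted over the arrays, 11 of the 64 probes had a negative ratio on all 4 (16% of all tested probes did) and 5 had a positive one on all 4 (13.6% of all tested probes did). By liver, all 4 fasted livers lay below all 4 re-fed livers for 7 probes, of Irf1, Irf3, Irf2bp1, Igtp, Ifi203 and both probes of Irgm1 (7.78% of all tested probes). They lay above them for 4 probes, of Irf2, Ifi204 and both probes of Irf2bp2 (5.81% of all tested probes). The tested genes were also split by the ISRE core in their promoter, whether or not it held a GAS core. The median ratio was -0.12 for the 20 tested genes with an ISRE core, -0.13 for the 19 without one and -0.02 for the 15 that are not in the promoter table. Of the called genes, Igtp and Irgm1 (lower) and Irf2bp2 (higher) have an ISRE core, and Irf1 and Igtp have a GAS core. Among the 39 tested members in the promoter table, 51.3% have an ISRE core and 33.3% a GAS core.

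The rest of the pathway was taken from a list of 97 genes outside the name rule, of which 77 were tested by 98 probes. Of these probes 1 was called higher and 2 lower, against 1.7% and 2.08% of all tested probes. The ligands were mostly below background. Of 15 on the array 5 were above it, and Ifnb1 and Ifng were not. Those 5 were dim, with mean log2 intensities of 6.36 to 6.55, and Ifna5 passed through the re-fed livers only. A second probe of Ifnab and of Ifnl3 was above background on 0 arrays in either condition. No receptor passed the test. Ifnar1, Ifnar2, Ifngr1 and Ifngr2 had mean log2 ratios of 0.12, 0.24, 0.16 and 0.29, and the kinases Jak1 and Tyk2 had means of -0.04 and -0.10. Stat2, a relay of the type I signal, had ratios of -0.23, -0.62, -0.86 and -0.38 (mean -0.52, adjusted p = 0.0555), under the fold limit. Stat3, which answers to interleukin 6 and leptin as well, had ratios of 0.31, 0.38, 0.52 and 1.06 (mean 0.57, adjusted p = 0.066), also under it.

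Of the adaptors that carry nucleic acid signals, Ticam1 (Trif), the partner of Toll-like receptor proteins, was lower in fasted liver. Its ratios were -0.58, -0.93, -0.35 and -0.50 (mean -0.59, SD 0.25, limma, adjusted p = 0.0343). Mavs, the mitochondrial adaptor of Ifih1, had a mean of -0.46 (adjusted p = 0.0707), and Ikbke, a kinase that phosphorylates Irf3, one of -0.36 (adjusted p = 0.0614). The brake Socs1, which blocks Jak kinases, had a mean of -0.31 (adjusted p = 0.0704). These 3 missed the fold limit. Cxcl10, a chemokine induced by interferon gamma, was called lower, with ratios of 0.06, -1.09, -1.56 and -1.55 (mean -1.03, SD 0.76, adjusted p = 0.0821). As with Isg15, replicate 1 differed from the other arrays. Nlrc5, the activator of MHC class I genes, was called higher by its brighter probe, with ratios of 1.03, 0.83, 0.29 and 0.42 (mean 0.64, SD 0.34, adjusted p = 0.0485), while its dimmer probe had a mean of 0.01. Some of these calls rested on single arrays. Ticam1 was not called without replicate 2, Nlrc5 was not called without replicate 1 or 2, and Cxcl10 was called when replicate 1 was left out but not when any other array was. Nlrc5 also lost its call with median centring, and Cxcl10 with no filter on dim probes.

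Immune cell markers were set beside these values because immune cells also express interferon-response genes. None of 8 Kupffer cell markers was called. Their median log2 ratios were 0.46, -0.24, 0.51 and -0.15 on replicates 1 to 4, and their summed log2 intensity ranged from 13.88 to 14.33 in fasted and from 13.39 to 14.14 in re-fed livers. For 5 of 8 T cell markers above background, with Cd8a and Cd3g below it, the sum ranged from 11.98 to 12.54 and from 11.62 to 12.59. Of 6 B cell markers 5 were not above background, Ms4a1 and Pax5 among them, and of 6 natural killer cell markers 4 were not, Ncr1 among them. The B cell marker above background, Cd79b, had log2 ratios of 0.19, -0.17, 1.01 and 0.95 on replicates 1 to 4 and was not called. For 4 of 5 plasmacytoid dendritic cell markers the sums ranged from 13.15 to 13.94 and from 12.67 to 13.57. The 4 of 8 neutrophil and monocyte markers above background had sums of up to 14.38 in fasted and of 13.56 to 14.25 in re-fed livers, with Ly6c2 and Ccr2 not above it. In each of these lists the ranges of the 2 states overlapped. They did not for the 7 sinusoidal endothelial markers, with sums of 13.35 to 13.49 in fasted and 13.13 to 13.30 in re-fed livers and a median log2 ratio of 0.16. None of these was called, and Stab2 had an adjusted p under 0.10 (mean 0.35, adjusted p = 0.0478). The part of cell makeup in the differences of Irf1, Igtp, Irgm1 and Irf2bp2 was not tested.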

How the data were processed

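The authors deposited scanner files with the median intensity and background intensity of each spot, read with Agilent Feature Extraction (10.10.1.1 in the file headers), and a table of log2 ratios normalised by loess in limma. Here the median signals were processed with limma 3.58.1 in R 4.3.3. Spots with a local background over 3 times the array's median were left out (0 to 29 per array), as were flagged spots (197 to 322). Background was removed by normexp (offset 50), ratios were loess-normalised and spots of a probe averaged. Ratios were tested with lmFit and eBayes, two-sided, with Benjamini-Hochberg adjustment over 19721 probes. Liver levels had Aquantile scaling between arrays, are open to dye bias and are not comparable between probes. With 4 arrays the precision is limited by their number.

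Probes took RefSeq names by accession (26055), by symbol or synonym (4125), or kept the file's name (9249). Per-array ratios are given for called members, those with an adjusted p under 0.10, the 6 largest positive and negative means, the 4 largest SDs and the Irf factors, and other members by their mean. Genes that these rules select but the text omits are not reported here. The members and lists were chosen with earlier results of these data known. Irgm2 was added for its promoter after its values were seen. Alternatives covered background, source of values, normalisation, filters, flags, dye term, test (SAM, named in the methods, rebuilt with 16 sign flips), fold limit, choice of probe and each replicate left out. The deposited log2 ratios were matched to spots by row number (r = 0.339 on replicate 1 and 0.864 to 0.956 on the others) and run as fasted over re-fed. The scripts were tested on simulated data.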

Additional observations from a re-analysis of the deposited data

Results flagged for a closer look

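Of the 54 genes, 4 had an array far from the other arrays, where chance gives about 1 in 20. Tap1 had a log2 ratio of 0.10 on replicate 1 against -0.15 to -0.16 on the others, and Oas1a one of 0.58 on replicate 1 against -0.25 to -0.36. Ifi27l2a had a ratio of -0.57 on replicate 2 against 0.32 to 0.42, and the brighter Irf2bp2 probe one of 0.96 on replicate 3 against 1.5 to 1.58. The cause was not tested.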

How the results depend on the processing

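The 2 Irf2bp2 probes and Irf1 were called under 15 of 16 alternatives, Irgm1 under 13 and Igtp under 12. The exception common to all was normexp fitted on all spots, which called 0 members higher, 0 lower and 0 other pathway probes. That setting kept the spots otherwise left out for their local background, which reached 286516 on replicate 3 and 443380 on replicate 4. Median local backgrounds were 20 to 35. With those spots kept, 5 probes were higher and 15 lower over the whole array. Lower member calls (3) were 5 with no background correction, with plain subtraction, with the deposited log2 ratios, with a dye term and with rebuilt SAM, 6 with median centring and with no fold limit, and 7 with Agilent's processed signals. Lower calls over the whole array (410) moved as well, to 495, 713, 526, 445, 439, 635, 1208 and 904 in that order. Leaving out 1 array gave 1 to 8 lower calls (8 without replicate 1, 1 without replicate 2 or 3, 2 without replicate 4; whole array 256 to 525) and 2 higher calls each time. Other pathway calls were 3, but 2 with no filter on dim probes, 4 with median centring and with the deposited log2 ratios, 5 with plain subtraction, 7 with Agilent's processed signals, 8 with no fold limit, and 1 to 5 when an array was left out (5 without replicate 1, 1 without replicate 2). The members' median stayed between -0.18 and -0.02 over 14 alternatives. Among 17 members taken by the rule for named genes, signs turned for Usp18 (0.24 with normexp on all spots, and -0.47 to 0.11 when an array was left out, positive without replicate 3 or 4) and Irf7 (-0.0047 with median centring). Over all 54 genes, the number with a negative mean was 39, and 31 with normexp on all spots and 45 with median centring. The causes were not tested. The ratio within an array already pairs its 2 livers, and is the main test. Beyond it, no paired analysis was possible because a further replicate block would leave nothing to compare within a number.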
